A study of Mus musculus with 8 samples.

Results

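The 8 arrays of the series, 1 for each preparation of intestinal epithelial cells, fall into 4 with high and 4 with low levels of genes that mark the ileum, the last stretch of the small intestine. The division takes all 8 of 8 arrays and was made from the data: it rests on the mean log2 level of Fabp6, Slc10a2, Slc51a, Slc51b, Fgf15, Cubn, Mptx1 and Pyy, and it ignores the treatment. The ileal-high arrays are siGFP 1, siYAP/TAZ 1, siYAP/TAZ 2 and siGFP 3, and the ileal-low arrays are shLacZ, shYAP/TAZ, siGFP 2 and siYAP/TAZ 3. Because the same arrays supplied the split and every value below, differences between the classes are a description and carry no test, and the 8 defining genes are left out of the counts of genes compared between the classes.

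All samples came from male mice of the outbred ICR strain, 8 weeks of age, whose small intestine had been transfected in the living animal, with RNA taken from isolated epithelial cells after 4 days. The siGFP arrays (n = 3) followed an siRNA against GFP, a jellyfish protein that mice lack, and the siYAP/TAZ arrays (n = 3) followed siRNAs against the Hippo pathway coactivators YAP and TAZ. The shLacZ array (n = 1) followed a plasmid-borne shRNA that targets the bacterial gene LacZ, and the shYAP/TAZ array (n = 1) followed plasmids for shRNAs against YAP and TAZ. The labels give neither the stretch of the small intestine that was used nor the number of mice behind an array, and they do not say whether the arrays of a group are separate animals. Each siRNA group holds 2 ileal-high arrays and 1 ileal-low array, while both shRNA arrays are ileal-low.

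The absorptive epithelium changes along the small intestine. Duodenum and jejunum take up most of the sugar, fat, iron, calcium and folate, while the ileum recovers bile acids and vitamin B12. In ileal enterocytes the apical transporter encoded by Slc10a2 brings bile acids in, the binding protein encoded by Fabp6 carries them through the cell, and the paired transporter encoded by Slc51a and Slc51b passes them to the blood. Bile acids also activate the nuclear receptor encoded by Nr1h4 (FXR), which turns on Fgf15, a hormone that tells the liver to make less bile acid. GATA4, with its cofactor FOG1 (Zfpm1), is known to hold the jejunal programme in place and to keep ileal genes off.

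The deposited values are probe set intensities on a linear scale. They were put on the log2 scale and quantile normalized, so a level is a normalized log2 intensity and a difference of 1 is a 2-fold change. Median deposited intensities lay between 76.4 and 95.5 over the arrays, and the class ranges of that median overlapped. The first principal component of the 19938 genes held 56.8% of the variance and set siYAP/TAZ 2, siGFP 3 and siYAP/TAZ 3 apart from the other 5 arrays. It crosses the ileal split, since those 3 arrays include 2 ileal-high and 1 ileal-low, and it ran with the crypt: the mean level of 19 mitotic genes was 5.66 to 5.93 in them and 7.56 to 8.44 in the others. Pearson's r between arrays across genes, which are not independent replicates, was 0.765 to 0.944 for the 12 pairs of the same class and 0.789 to 0.963 for the 16 pairs of different classes, so the split is not the main axis of these arrays. Epithelial markers were bright on every array: Epcam lay between 11.47 and 12.38 and Vil1, which encodes the brush border protein villin, between 11.08 and 12.64. Colonic Car1 and Aqp8 did not exceed 5.85 and 6.31, while Car4 reached 11.27.

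Fabp6 divided the arrays most sharply. Below, values of ileal-high arrays are always in the order siGFP 1, siYAP/TAZ 1, siYAP/TAZ 2, siGFP 3 and those of ileal-low arrays in the order shLacZ, shYAP/TAZ, siGFP 2, siYAP/TAZ 3. The level of Fabp6 was 11.16, 8.75, 11.93 and 10.45 in the ileal-high arrays and 4.33, 4.27, 4.24 and 4.40 in the ileal-low arrays. In the ileal-low arrays it was thus near the lowest normalized value on the arrays, and the lowest ileal-high array stood 4.35 above the highest ileal-low array on the log2 scale.

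Slc10a2, the apical importer, was at 8.56, 9.28, 9.22 and 8.85 in the ileal-high arrays and 4.55, 6.53, 4.79 and 4.55 in the ileal-low arrays, so that shYAP/TAZ held a level between the other low arrays and the high ones. The exporter genes were bright on all 8 arrays: Slc51a was at 11.78, 10.82, 11.32 and 11.26 in the ileal-high arrays and 10.73, 9.74, 9.58 and 10.37 in the ileal-low arrays, and Slc51b at 10.99, 11.65, 10.64 and 10.81 in the ileal-high arrays and 9.73, 10.90, 9.11 and 10.25 in the ileal-low arrays. Slc51a did not overlap between the classes, though only by 0.09, and Slc51b overlapped because shYAP/TAZ exceeded both siYAP/TAZ 2 and siGFP 3. Fgf15 was dim, at 5.64, 5.04, 7.35 and 6.92 in the ileal-high arrays and 4.90, 4.99, 5.11 and 4.49 in the ileal-low arrays; its class ranges overlapped, and siYAP/TAZ 2 and siGFP 3 were the arrays with the most.

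The other defining genes followed the split less closely. Cubn, which encodes the vitamin B12 receptor cubilin, was at 10.96, 5.97, 10.75 and 11.69 in the ileal-high arrays and 10.95, 4.37, 11.52 and 8.90 in the ileal-low arrays. It was low in siYAP/TAZ 1, an ileal-high array, and high in shLacZ and siGFP 2, both ileal-low, so its ranges overlapped almost completely. Mptx1, a mucosal pentraxin, was at 8.62, 7.39, 7.56 and 6.77 in the ileal-high arrays and 8.50, 6.21, 8.33 and 5.97 in the ileal-low arrays and overlapped as well. Both Cubn and Mptx1 were lower in every siYAP/TAZ array than in the siGFP array of the same number, and lower in shYAP/TAZ than in shLacZ. Each of the other defining genes differed in both directions over these comparisons. The levels of Cubn and Mptx1, and so the 8-gene mean, thus also ran with the treatment label. Pyy, the hormone peptide YY of endocrine L cells, was at 7.73, 6.90, 6.60 and 6.97 in the ileal-high arrays and 6.52, 5.85, 6.06 and 6.45 in the ileal-low arrays, with all ileal-high arrays above the rest. In all, 4 of the 8 genes were apart (Fabp6, Slc10a2, Slc51a and Pyy), which describes the choice of arrays and nothing further. The mean of the 8 genes was 8.23 in siYAP/TAZ 1, the array just inside the ileal-high class, and 7.53 in shLacZ, the array just outside it; the others stood at 9.43, 9.42 and 9.21 on one side and 7.34, 6.92 and 6.61 on the other. With the 5 bile acid genes alone, the gap was wider, from 9.11 in siYAP/TAZ 1 to 7.29 in shYAP/TAZ.

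**Figure D1:**
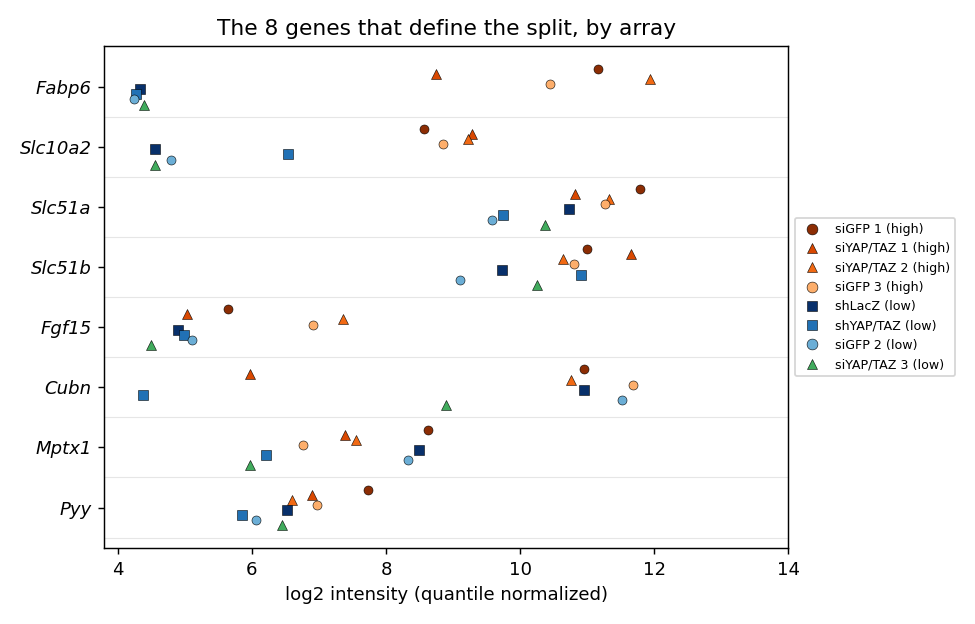
Normalized log2 intensity (horizontal axis) of the 8 genes that define the split (rows), 1 point per array, with warm colours for ileal-high and blue or green for ileal-low arrays. Fabp6 lies between 8.75 and 11.93 in the ileal-high arrays and between 4.24 and 4.40 in the ileal-low arrays, whereas Cubn and Mptx1 mix the classes.

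Outside the defining genes, the named genes with the largest differences were Tmigd1, Plb1 and Suox among those higher and Cd36, Cyp2b10, Onecut2 and Fabp1 among those lower in the ileal-high arrays. All 4 ileal-high arrays lay above all 4 ileal-low arrays for 109 of 19930 genes (0.547%) and below them for 140 (0.702%). With a mean difference of at least 2-fold as well, 13 genes were higher (0.0652%) and 49 lower (0.246%). Regardless of overlap, 68 (0.341%) had a mean at least 2-fold higher and 128 (0.642%) at least 2-fold lower. The balance of higher and lower genes depended on the scaling: the genes higher in the ileal-high arrays without overlap numbered 55 with 75th percentile centring and 46 without normalization, and the genes lower in the ileal-high arrays without overlap 151 and 122. A gap of at least 1 on the log2 scale between the nearest arrays of the classes was seen for 4 genes higher (0.0201%) and 7 lower (0.0351%). The higher ones were Tmigd1, Suox, Adcy8 and Map3k6, and the lower ones Cd36, Onecut2, Casp6, Car2, Zfpm1, Fabp1 and Prdm16. In the mean, 52.2% of the 19930 genes were higher and 47.8% lower in the ileal-high arrays. The median difference over all 19930 genes was 0.01, and 5% of genes lay below -0.40 and 5% above 0.37. These shares describe the arrays as split; since the arrays were chosen on their own values, nothing is read from the counts. In bulk samples, fewer cells of a type and less RNA per cell cannot be told apart.

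Tmigd1, which encodes an adhesion molecule of enterocytes, had the largest difference among named genes higher in the ileal-high arrays. Its level was 11.11, 10.94, 11.23 and 12.09 in the ileal-high arrays and 7.62, 8.89, 6.66 and 7.25 in the ileal-low arrays, 13.3-fold higher in the mean, and the classes were 2.05 apart. Plb1, the phospholipase B of the brush border that splits dietary phospholipids and retinyl esters, was at 11.15, 10.59, 11.44 and 12.19 in the ileal-high arrays and 9.02, 9.89, 7.56 and 6.03 in the ileal-low arrays, 9.29-fold higher in the mean. All 7 probe sets of Plb1 had the classes apart, with differences of 2.54 to 3.33. Suox, the mitochondrial sulfite oxidase, was at 10.87, 9.13, 9.58 and 9.06 in the ileal-high arrays and 7.16, 5.86, 6.90 and 6.05 in the ileal-low arrays, 8.97-fold higher. Among the low arrays, shYAP/TAZ held the most Tmigd1 and Plb1, as it held the most Slc10a2, but the least Suox.

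Further genes higher in all ileal-high arrays had smaller differences. Lpcat4, an acyltransferase that remodels membrane phospholipids, was at 8.80, 8.89, 8.20 and 8.43 in the ileal-high arrays and 6.80, 7.96, 5.92 and 6.08 in the ileal-low arrays, a mean difference of 1.89. Map3k6, a stress kinase gene, was at 8.31, 8.31, 8.53 and 9.54 in the ileal-high arrays and 6.75, 7.26, 6.93 and 6.68 in the ileal-low arrays, with a difference of 1.76. Adcy8, an adenylyl cyclase that makes cyclic AMP, was at 7.32, 6.87, 6.69 and 7.32 in the ileal-high arrays and 5.59, 5.35, 5.46 and 5.48 in the ileal-low arrays, with a difference of 1.58 and only 0.25 between its lowest and highest ileal-low array. Mgat4c, which by its family builds branches of N-glycans, was bright throughout and differed by 1.60. The mean differences of Epb41l1, a membrane skeleton gene, and Marcksl1, an actin regulator, were 1.37 and 1.31. They were 1.25 for Paqr8, a membrane progestin receptor, 1.10 for Slc44a4, a transporter of the choline transporter family, and 1.08 for the lysosomal sialidase Neu1. Fam83e at 0.93, Csf2ra, a receptor chain for GM-CSF, at 0.89 and Guca2a, which encodes the gut hormone guanylin, at 0.90 fell short of 2-fold. For Paqr8, Neu1 and Guca2a the classes were parted by no more than 0.10.

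Cd36, which encodes a fatty acid uptake receptor of the proximal gut, had the largest difference among named genes lower in the ileal-high arrays. Its level was 5.19, 6.82, 6.33 and 7.12 in the ileal-high arrays and 9.43, 10.72, 10.14 and 9.61 in the ileal-low arrays, 12.2-fold lower in the mean, and no ileal-high array came within 2.31 of an ileal-low one. Fabp1, the liver-type fatty acid binding protein of duodenal and jejunal enterocytes, was at 5.28, 10.24, 8.79 and 10.16 in the ileal-high arrays and 11.49, 11.38, 11.33 and 11.65 in the ileal-low arrays. It was near the floor in siGFP 1 but well expressed in the other 3 ileal-high arrays, so the 7.21-fold mean difference rests partly on that array: without it the log2 difference of -2.85 became -1.74. Onecut2, a transcription factor gene of the proximal small intestine, was at 5.43, 5.71, 5.98 and 6.24 in the ileal-high arrays and 8.20, 9.63, 8.46 and 8.87 in the ileal-low arrays, 7.73-fold lower. Casp6, an effector caspase gene, was at 7.32, 7.72, 6.25 and 7.28 in the ileal-high arrays and 9.80, 8.94, 9.59 and 10.27 in the ileal-low arrays, and Car2, a cytosolic carbonic anhydrase gene, at 5.07, 4.44, 5.32 and 5.17 in the ileal-high arrays and 6.67, 6.52, 7.01 and 8.80 in the ileal-low arrays. Both were lower in every ileal-high array, by 5.69-fold and 4.76-fold in the mean, and Car2 was highest in siYAP/TAZ 3.

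Several lower genes nearly met between the classes in siGFP 3. Cyp2b10, a drug-metabolizing cytochrome P450 gene, was at 4.60, 5.67, 6.45 and 8.92 in the ileal-high arrays and 10.19, 8.94, 10.80 and 8.96 in the ileal-low arrays. Nr1i3, the nuclear receptor CAR that is known to induce Cyp2b10, was at 5.92, 5.94, 5.85 and 8.06 in the ileal-high arrays and 8.31, 8.16, 8.41 and 8.15 in the ileal-low arrays. Cym, the gene of the milk-clotting protease chymosin, was at 4.54, 4.88, 6.05 and 7.84 in the ileal-high arrays and 9.17, 8.11, 8.38 and 8.36 in the ileal-low arrays, and Adh1, an alcohol and retinol dehydrogenase gene, at 8.42, 8.21, 9.36 and 9.70 in the ileal-high arrays and 12.19, 10.83, 12.32 and 10.05 in the ileal-low arrays. For these 4 genes siGFP 3 was the highest ileal-high array and came closest to the ileal-low ones, by 0.02 for Cyp2b10 and 0.09 for Nr1i3. Cyp2b9, at a difference of -2.29, has a sequence so like that of Cyp2b10 that the array signal of either is uncertain as a single gene. The remaining genes with the largest differences were Slc2a2, described with the sugar genes, Cda, a cytidine deaminase (-1.78), Zfpm1 (-1.66), Prxl2a (-1.56) and Fn1, which encodes fibronectin (-1.73). Fn1 stood at 9.91 in shYAP/TAZ, and without that array its difference was -1.11.

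**Figure D2:**
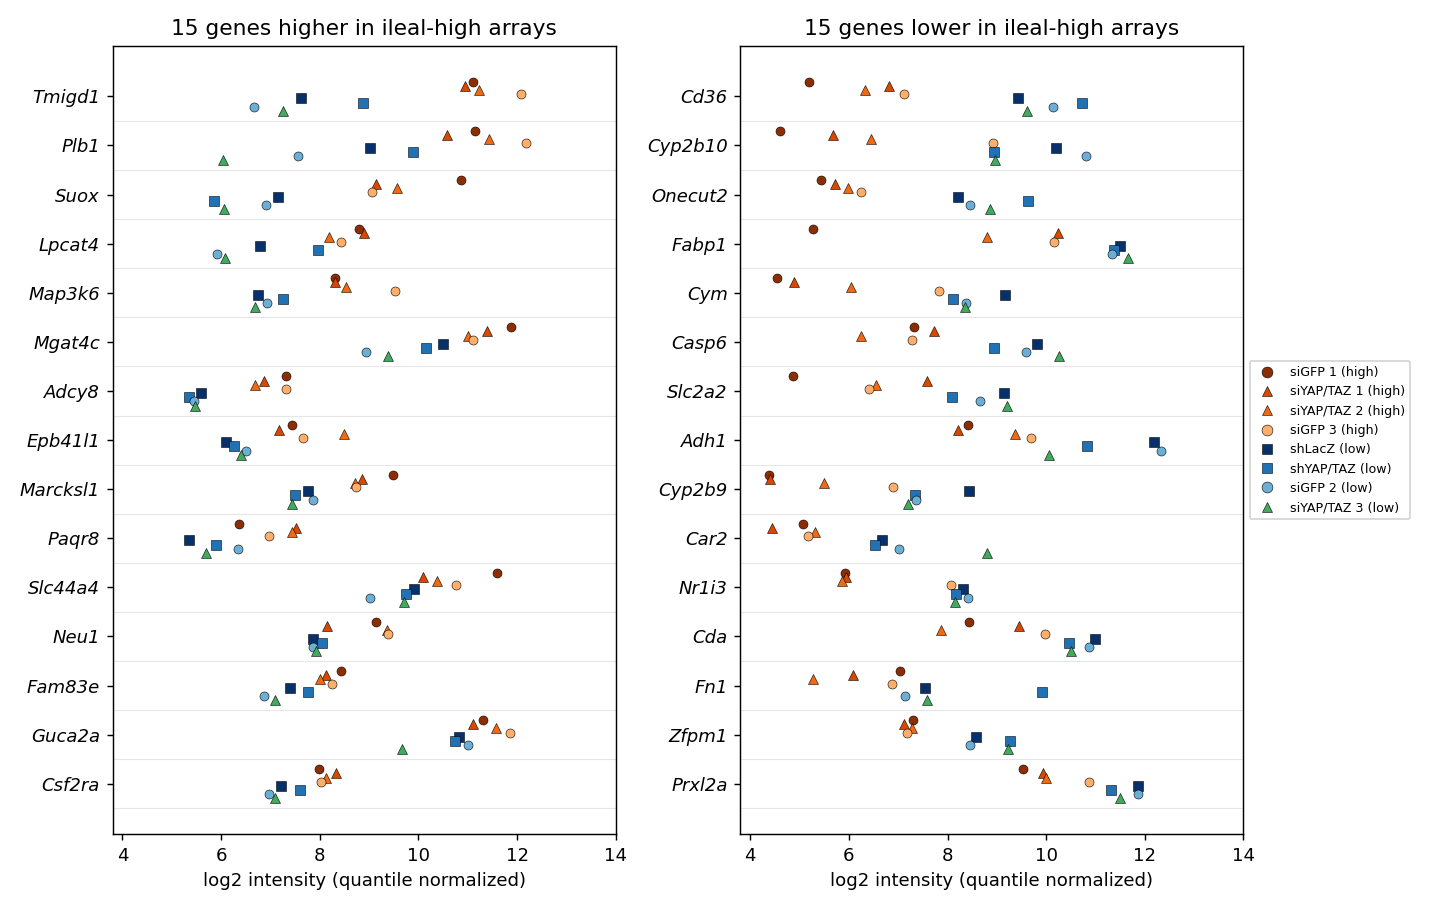
Normalized log2 intensity (horizontal axis) of the 15 genes with the largest mean difference in each direction among named genes whose classes do not overlap and that are outside the dimmest 33% (rows), 1 point per array. In the left panel the warm points of the ileal-high arrays lie to the right of the others, as for Tmigd1 (10.94 to 12.09 against 6.66 to 8.89), and in the right panel to the left, as for Cd36 (5.19 to 7.12 against 9.43 to 10.72).

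The start site sequences of some genes with large differences are shown so that their motifs can be read beside the levels. They are Tmigd1 and Plb1 as higher genes, Cd36 and Fabp1 as lower genes of fat uptake, and Fabp6 as the gene that parted the classes most. Suox, Cyp2b10 and Onecut2, with larger differences than Fabp1, are not shown, and Onecut2 had no window listed. The sequences are RefSeq windows of the GRCm38.p6 build, 250 bases before to 50 after a start site, written along the strand of the gene. Capitals mark matches on either strand to 5 motifs. The letters searched for GATA factors were AGATAA and also TGATAA. Those for the intestinal CDX factors were TTTATG. For the HNF1 factors of enterocytes they were GTTAAT. For the HNF4 factors they were CAAAGT. The motif that many nuclear receptors share was searched as AGGTCA. In the Cd36 window a CDX match and a nuclear receptor match overlap.
Tmigd1, chr11:76901909-76902208, plus strand: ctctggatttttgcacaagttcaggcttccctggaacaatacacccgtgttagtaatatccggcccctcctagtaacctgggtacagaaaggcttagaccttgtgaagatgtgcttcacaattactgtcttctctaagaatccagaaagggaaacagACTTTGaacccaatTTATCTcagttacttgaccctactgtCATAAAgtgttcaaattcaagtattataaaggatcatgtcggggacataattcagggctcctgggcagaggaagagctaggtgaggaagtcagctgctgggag
Plb1, chr5:32238834-32239133, plus strand: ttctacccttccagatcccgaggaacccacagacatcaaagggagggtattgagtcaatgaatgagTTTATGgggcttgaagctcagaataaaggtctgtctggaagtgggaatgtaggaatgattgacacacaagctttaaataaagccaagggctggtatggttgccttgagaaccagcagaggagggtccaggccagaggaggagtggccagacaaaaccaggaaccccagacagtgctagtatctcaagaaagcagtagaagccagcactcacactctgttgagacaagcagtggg
Cd36, chr5:17835847-17836146, minus strand: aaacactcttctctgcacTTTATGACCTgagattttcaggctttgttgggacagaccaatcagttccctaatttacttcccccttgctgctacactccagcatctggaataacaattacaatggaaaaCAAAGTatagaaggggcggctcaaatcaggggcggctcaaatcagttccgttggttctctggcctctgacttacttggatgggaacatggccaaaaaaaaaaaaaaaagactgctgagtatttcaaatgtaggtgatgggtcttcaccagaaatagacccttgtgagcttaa
Fabp1, chr6:71199629-71199928, plus strand: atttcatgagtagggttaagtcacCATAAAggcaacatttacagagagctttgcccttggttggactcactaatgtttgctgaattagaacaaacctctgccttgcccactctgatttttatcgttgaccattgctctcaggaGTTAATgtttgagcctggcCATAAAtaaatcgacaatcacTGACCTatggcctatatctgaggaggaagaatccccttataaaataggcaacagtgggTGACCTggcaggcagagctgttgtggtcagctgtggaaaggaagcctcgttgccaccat
Fabp6, chr11:43601513-43601812, minus strand: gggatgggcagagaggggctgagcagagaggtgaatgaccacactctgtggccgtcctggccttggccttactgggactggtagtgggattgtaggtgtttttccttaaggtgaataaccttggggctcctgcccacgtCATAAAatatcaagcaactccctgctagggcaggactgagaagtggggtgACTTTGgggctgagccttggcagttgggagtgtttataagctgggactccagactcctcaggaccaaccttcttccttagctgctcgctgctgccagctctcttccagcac

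The Tmigd1 window held 1 match each to the GATA, CDX and HNF4 motifs, the Plb1 window held 1 CDX match, and the other listed start site of each of these genes held none of the 5 motifs. Cd36 had 1 CDX, 1 HNF4 and 1 nuclear receptor match. Fabp1 had 2 CDX, 1 HNF1 and 2 nuclear receptor matches, and Fabp6 had 1 CDX and 1 HNF4 match. Over all 32851 windows of the table, 18.6% held the GATA motif, 11.9% CDX, 7.1% HNF1, 14.4% HNF4 and 16.3% the nuclear receptor motif. Of the 15 higher genes, 14 were listed, with 22 windows, of which 6 held GATA, 2 CDX, 0 HNF1, 3 HNF4 and 2 the nuclear receptor motif. Of the 15 lower genes, 12 were listed, with 16 windows, of which 4 held GATA, 3 CDX, 3 HNF1, 6 HNF4 and 4 the nuclear receptor motif. The windows with HNF4 lay in 5 genes and those with HNF1 in 2. A match is only a stretch of letters, and a window without one says nothing of the factor.

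Among genes for regional identity factors, 4 of 22 measured had the classes apart, all lower in the ileal-high arrays, where 0.702% of all genes were, and the median difference of the list was -0.14 against 0.01 for all genes. Beside Onecut2, Zfpm1, which encodes the GATA cofactor FOG1, was at 7.29, 7.11, 7.29 and 7.17 in the ileal-high arrays and 8.57, 9.27, 8.45 and 9.23 in the ileal-low arrays, 3.17-fold lower. Its 4 ileal-high arrays spanned only 0.18. Gata4, the factor of duodenum and jejunum, was at 8.12, 8.42, 7.61 and 7.87 in the ileal-high arrays and 9.22, 9.16, 8.62 and 8.65 in the ileal-low arrays, a difference of -0.91 with 0.19 between the classes. Onecut3 differed by -0.55, with 0.33 between the classes.

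The remaining regional factors overlapped between the classes. Gata6, which is expressed along the whole small intestine, was at 9.86, 9.87, 9.31 and 10.19 in the ileal-high arrays and 10.27, 10.59, 10.08 and 10.22 in the ileal-low arrays. Osr2 was at 9.87, 8.20, 8.24 and 9.07 in the ileal-high arrays and 9.28, 8.17, 8.20 and 7.78 in the ileal-low arrays, highest in siGFP 1. Cdx2, the general intestinal factor, was at 9.92, 9.63, 8.21 and 8.49 in the ileal-high arrays and 9.46, 9.89, 8.92 and 8.42 in the ileal-low arrays, and its low values lay in siYAP/TAZ 2, siGFP 3 and siYAP/TAZ 3, the arrays set apart by the first principal component. Hnf4g differed by -0.39 and Cdx1 by 0.15. Hox genes mark position along the body axis. Of 37 measured, Hoxc11 was apart as higher (0.547% of all genes), by 0.30, and Hoxc12 as lower (0.702% of all genes), at -0.53. Both were dim, with no array above 6.28.

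The bile acid receptor gene Nr1h4 was at 8.68, 9.61, 7.62 and 8.26 in the ileal-high arrays and 8.02, 8.35, 7.18 and 7.37 in the ileal-low arrays. Its mean was higher in the ileal-high arrays by 0.81, but siYAP/TAZ 2 lay below shLacZ and shYAP/TAZ. Nr0b2, which encodes SHP, a target of that receptor, was at 6.05, 5.16, 6.48 and 7.69 in the ileal-high arrays and 6.04, 5.23, 5.24 and 5.58 in the ileal-low arrays, with siGFP 3 highest. Of the 17 further bile acid genes measured, 0 had the classes apart, and their median difference was 0.03. Over all genes 0.547% were apart as higher and 0.702% as lower, so nothing is read from that count. Cyp27a1, of the alternative route of bile acid synthesis, differed by -0.62, and the efflux pumps Abcc2 and Abcg2 by 0.55 and 0.53. Abcc2 turned to -0.03 without shYAP/TAZ, Abcg2 was 0.21 without siGFP 3 and Cyp27a1 -0.36 without siGFP 1.

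Partners of cubilin and genes of vitamin B12 uptake had 0 of 15 apart, where 0.547% of all genes were apart as higher and 0.702% as lower, so nothing is read from the count; the median was 0.04, from -0.0061 without siGFP 2 to 0.19 without siYAP/TAZ 3. Amn, which encodes amnionless, the membrane anchor of cubilin, was at 9.07, 7.51, 9.94 and 10.16 in the ileal-high arrays and 8.87, 7.40, 9.15 and 9.25 in the ileal-low arrays. It was lowest in siYAP/TAZ 1 and shYAP/TAZ, the arrays that were also lowest in Cubn. These belong to different classes, but both are knockdown-labelled. Lrp2 (megalin) and the endocytic adaptor Dab2 differed by 0.24 and 0.43, with overlap.

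**Figure D3:**
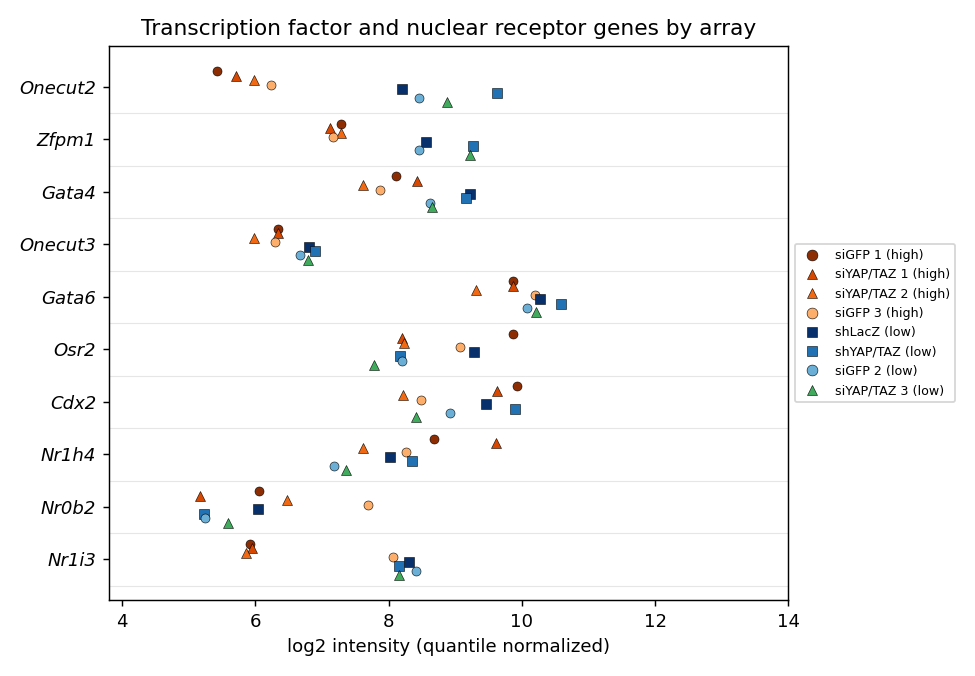
Normalized log2 intensity (horizontal axis) of 10 genes for regional transcription factors and nuclear receptors (rows), 1 point per array. Onecut2, Zfpm1, Gata4, Onecut3 and Nr1i3 have the warm points of the ileal-high arrays to the left of all others, while Gata6, Osr2, Cdx2, Nr1h4 and Nr0b2 overlap.

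Genes of sugar digestion and uptake had the most negative median of the 28 lists described, -0.84: 15 of 17 were lower in the mean in the ileal-high arrays, against 47.8% of all genes, and 2 were apart, against 0.702%. Slc2a2, the basolateral glucose exporter GLUT2, was at 4.87, 7.58, 6.54 and 6.40 in the ileal-high arrays and 9.15, 8.10, 8.66 and 9.21 in the ileal-low arrays, 5.39-fold lower. Slc2a5, the fructose transporter GLUT5, was at 7.78, 7.92, 8.62 and 7.91 in the ileal-high arrays and 9.42, 9.06, 9.66 and 9.23 in the ileal-low arrays, 2.44-fold lower. Lct, the gene of lactase, was at 9.39, 7.78, 10.53 and 11.87 in the ileal-high arrays and 11.86, 8.32, 12.01 and 12.22 in the ileal-low arrays. It overlapped: shYAP/TAZ, an ileal-low array, stood with siYAP/TAZ 1 at the bottom, and siGFP 3 was just above shLacZ. Its difference of -1.21 became -0.51 without siYAP/TAZ 1 and -2.14 without shYAP/TAZ. Slc2a7 differed by -1.32, the gluconeogenic genes Fbp1 and Pck1 by -1.11 and -1.05 and trehalase (Treh) by -1.04, all with overlap.

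In the fat absorption list, 18 of 24 genes were lower in the mean (47.8% of all genes) and 3 were apart (0.702% of all genes), Cd36, Fabp1 and Apoa4, with a median of -0.27. Apoa4, the apolipoprotein of chylomicrons, was at 11.54, 12.38, 12.56 and 13.16 in the ileal-high arrays and 13.40, 13.42, 13.40 and 13.27 in the ileal-low arrays, so all ileal-low arrays lay within 0.15 of each other. Apoc3, Dgat2 and the lipid droplet gene Plin2 differed by -1.25, -0.69 and -0.65 without separation, and leaving out siYAP/TAZ 1 brought that median to -0.075 and leaving out siGFP 3 to -0.48. It was -0.15 without siGFP 1 and -0.44 without shYAP/TAZ.

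Genes of duodenal iron, calcium and folate uptake had a median of -0.09, with 2 of 19 apart (0.702% of all genes), Car2 and Fth1, both lower. The median ran from -0.18 without siGFP 1 to -0.014 without siYAP/TAZ 1. Fth1, which encodes the heavy chain of the iron store ferritin, differed by -0.27. Slc46a1, the proton-coupled folate transporter, was at 8.25, 8.41, 7.99 and 8.76 in the ileal-high arrays and 10.35, 8.33, 10.18 and 10.43 in the ileal-low arrays: shYAP/TAZ lay among the ileal-high arrays and the other ileal-low arrays above all of them. Slc40a1, the iron exporter ferroportin, was higher in the mean by 0.66, with overlap. The duodenal marker Trpv6 did not exceed 6.76, and Cybrd1, the duodenal ferric reductase, lay between 5.96 and 6.98.

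Of 17 amino acid and peptide transport genes, 2 were apart, both lower (0.702% of all genes), and the median was -0.09, from -0.28 without siGFP 3 to -0.014 without siYAP/TAZ 2. Slc7a8, a basolateral neutral amino acid exchanger, was at 9.47, 8.81, 8.78 and 9.38 in the ileal-high arrays and 11.16, 9.78, 10.26 and 9.51 in the ileal-low arrays, and Slc16a10, an aromatic amino acid carrier, differed by -0.76. None of 12 brush border peptidase genes was apart, where 0.547% of all genes were apart as higher and 0.702% as lower. The median of these peptidase genes was 0.05, from -0.18 without siGFP 3 to 0.34 without siYAP/TAZ 1. Their means differed both ways, at -1.19 for Ace and -1.07 for Mme, the neprilysin gene (-0.50 without siYAP/TAZ 1), and 0.92 for Xpnpep2 and 0.83 for Mep1a, a meprin subunit gene. The 19 sodium-coupled and anion transporters overlapped throughout, with a median of -0.03 (0.01 without normalization): the lactate and monocarboxylate transporter Slc5a12 stood at -1.48 (-0.92 without siGFP 1) and the biotin and pantothenate transporter Slc5a6 at 1.12. The sulfate transporter Slc13a1 stood at 0.92 and the phosphate transporter Slc34a2 at 0.76.

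Xenobiotic metabolism genes had 17 of 23 members lower in the mean, against 47.8% of all genes, 3 of them apart, against 0.702% (Cyp2b10, Adh1 and Nr1i3), and a median of -0.47, or -0.25 without siYAP/TAZ 1. Cyp3a11, the main intestinal CYP3A gene, was at 5.81, 6.18, 7.81 and 9.08 in the ileal-high arrays and 9.24, 8.35, 11.24 and 9.52 in the ileal-low arrays; siGFP 3 exceeded shYAP/TAZ. Abcb1a, the drug efflux pump that is known to rise toward the ileum, was higher in the mean by 0.98, with overlap. Among PPAR and fatty acid oxidation genes, 15 of 17 were lower in the mean (47.8% of all genes) and 0 apart (0.702% of all genes were apart as lower), with a median of -0.35. Pdk4, which restrains glucose oxidation, differed most, by -2.42. Among siYAP/TAZ 2, siGFP 3 and siYAP/TAZ 3 alone, the list's median was 0.0077. Cholesterol synthesis genes had 14 of 16 higher in the mean (52.2% of all genes) and 0 apart (0.547% of all genes were apart as higher), with a median of 0.49. Sqle, squalene epoxidase, differed by 1.24. That median ranged from 0.20 without siYAP/TAZ 3 to 0.85 without shYAP/TAZ, and it was 0.29 without siGFP 1, 0.23 without siYAP/TAZ 1 and 0.77 without siYAP/TAZ 2.

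**Figure D4:**
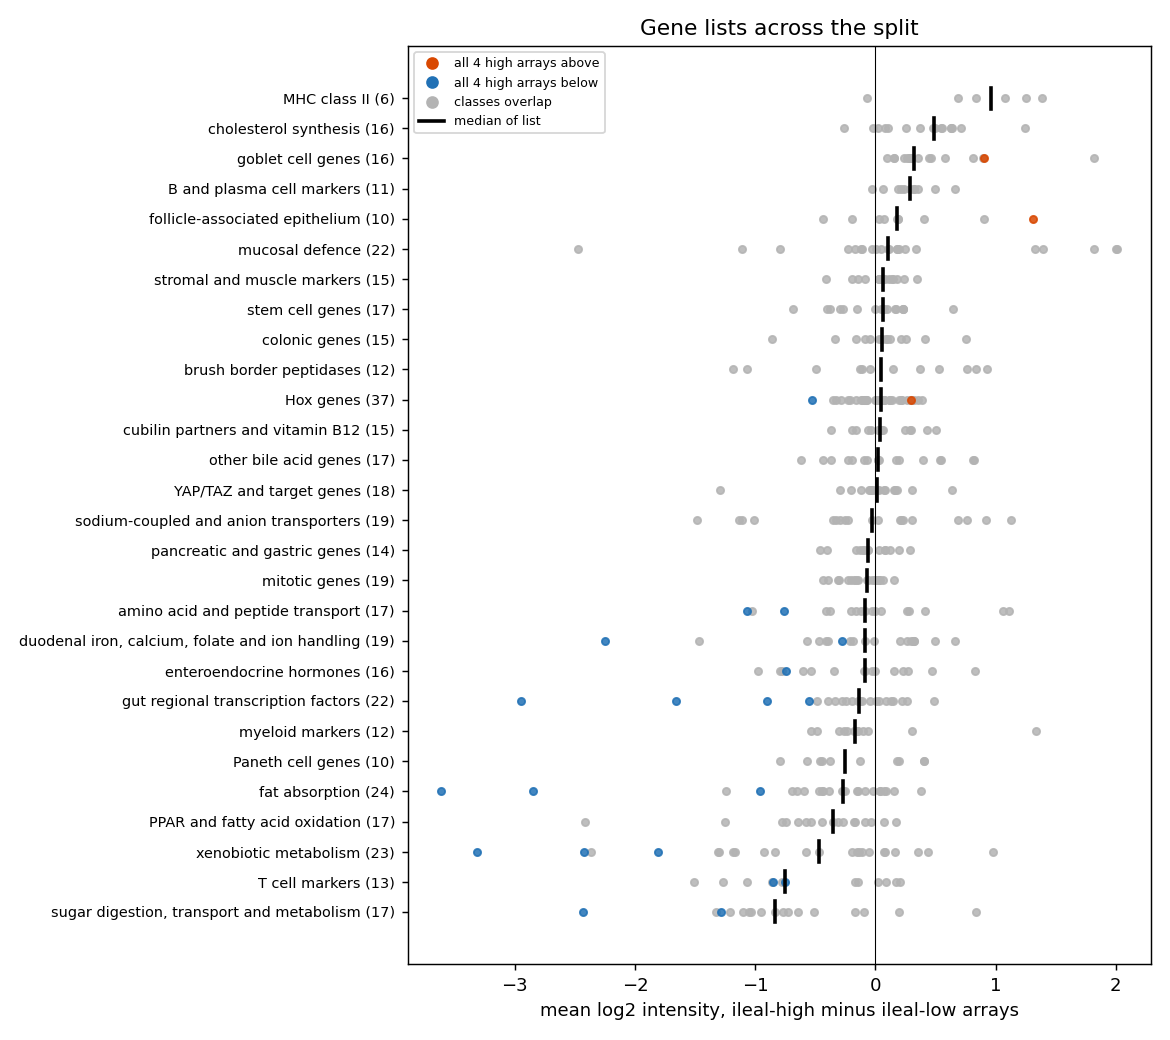
Mean log2 difference between ileal-high and ileal-low arrays (horizontal axis) for the members of 28 gene lists (rows, with the number measured), 1 point per gene, and the median of each list as a black bar. Sugar genes have the lowest median (-0.84) and MHC class II genes the highest (0.96), and blue points, genes with all ileal-high arrays below the rest, sit mostly in the lists of regional factors, fat absorption, xenobiotic metabolism, sugar, duodenal handling, amino acid transport and T cells.

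Secretory and crypt lists were mixed. All 16 goblet cell genes were higher in the mean in the ileal-high arrays, as were 52.2% of all genes, with a median of 0.32, but only Guca2a was apart, where 0.547% of all genes were. Muc2, the main mucin gene, was at 12.60, 11.45, 11.65 and 12.51 in the ileal-high arrays and 11.61, 11.66, 11.06 and 11.56 in the ileal-low arrays, and Retnlb, at a mean difference of 1.82, was high in siYAP/TAZ 1 alone (11.26; at most 7.23 elsewhere). The goblet median was 0.52 without siYAP/TAZ 2. Paneth cell, stem cell and mitotic genes had 0 members apart, where 0.547% of all genes were apart as higher and 0.702% as lower. The medians of these lists were -0.25, 0.06 and -0.07, in that order. The Paneth median changed sign without siYAP/TAZ 2 (0.20) or siGFP 3 (0.07), and it was -0.46 without siYAP/TAZ 1, -0.60 without siYAP/TAZ 3, -0.05 without shLacZ and -0.03 without siGFP 2. The stem cell median ran from -0.38 without siYAP/TAZ 3 to 0.26 without siGFP 3, and the mitotic median from -0.56 to 0.32 without the same arrays, so neither has a settled sign.

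Of 16 enteroendocrine genes, 1 was apart as lower (0.702% of all genes), Chgb, which encodes the granule protein chromogranin B. Its difference was -0.74 (-0.38 without siYAP/TAZ 2), and the median of the list was -0.09. Gip, a hormone of the proximal gut, differed by -0.97 and Gcg, the precursor of the ileal hormone GLP-1, by 0.83. Both overlapped: Gcg was at 8.31, 7.61, 6.39 and 6.13 in the ileal-high arrays and 7.29, 6.97, 5.58 and 5.28 in the ileal-low arrays, so its high values lay in siGFP 1 and siYAP/TAZ 1 of the high class and in shLacZ and shYAP/TAZ of the low class. Nts, neurotensin, another distal hormone, differed by -0.08.

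Markers of T cells, which lie between epithelial cells, were lower in the median in the ileal-high arrays. Their median difference was -0.75, with 9 of 13 lower in the mean (47.8% of all genes) and 2 apart and lower (0.702% of all genes), Cd8a and Il2rb. The summed linear intensity of the 13 genes was 795 to 1772 in the ileal-high and 1354 to 2850 in the ileal-low arrays, overlapping. Cd8a was at 6.49, 6.18, 6.45 and 6.20 in the ileal-high arrays and 7.10, 7.12, 6.87 and 7.24 in the ileal-low arrays, and Cd3e, of the T cell receptor complex, at 6.95, 6.39, 6.88 and 5.29 in the ileal-high arrays and 8.25, 7.51, 6.80 and 7.21 in the ileal-low arrays. The granzyme genes Gzma and Gzmb differed by -1.51 (-0.90 without siGFP 3) and -1.27. Outside the list, Klrd1, Ccl5 and Cd7, genes of cytotoxic lymphocytes chosen after their values were seen, were also among the 49 lower genes, at -1.26, -1.21 and -1.32. The part of these cells in the epithelial differences was not tested. The T cell median was -0.50 without siGFP 3 and -0.49 without shLacZ.

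MHC class II genes stood at a median of 0.96 with 0 of 6 apart. Over all genes 0.547% were apart as higher and 0.702% as lower, so nothing is read from the counts of genes apart in this paragraph. Cd74, the invariant chain, was at 11.43, 11.22, 10.52 and 7.62 in the ileal-high arrays and 7.95, 8.67, 9.58 and 9.58 in the ileal-low arrays; siGFP 3 was the lowest of all 8 arrays, and leaving out siGFP 1 or siGFP 3 moved that median to 0.43 or 1.74. It was -1.07 among siYAP/TAZ 2, siGFP 3 and siYAP/TAZ 3 and 2.41 among the other 5 arrays, so its direction does not hold within both sets. The summed intensity of the class II genes was 513 to 6782 in the ileal-high and 659 to 2555 in the ileal-low arrays. B and plasma cell markers had 0 of 11 apart, with a median of 0.29 that ranged from -0.36 without siYAP/TAZ 2 to 0.80 without siYAP/TAZ 3, and with summed intensities of 368 to 2850 and 325 to 1460; siYAP/TAZ 2 and siYAP/TAZ 3, of different classes, held the most. None of 12 myeloid, 15 stromal and muscle or 14 pancreatic and gastric genes was apart, with medians of -0.17, 0.07 and -0.06. Mucosal defence genes had 0 of 22 apart and a median of 0.11, which turned to -0.24 without siYAP/TAZ 1 and was 0.41 without shYAP/TAZ; Duox2, an epithelial oxidase, was at 9.51, 9.68, 8.98 and 6.42 in the ileal-high arrays and 5.75, 8.31, 5.11 and 7.38 in the ileal-low arrays. Reg1, a lectin gene, was at 5.14, 5.49, 4.68 and 4.72 in the ileal-high arrays and 8.04, 4.77, 8.35 and 8.77 in the ileal-low arrays, so shYAP/TAZ was the single ileal-low array with the level of the ileal-high arrays. Of 15 colonic genes 0 were apart, with a median of 0.06, and of 10 genes of the epithelium over lymphoid follicles Marcksl1 was apart as higher, with a median of 0.18. Of 18 YAP/TAZ and target genes 0 were apart, with a median of 0.01 (-0.02 with 75th percentile centring). Yap1 and Wwtr1, the genes targeted in the study, differed by -0.29 and 0.31 between the classes, with overlap.

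A knockdown-labelled array can belong to a different class from its control, taken here as the siGFP array of the same number, or shLacZ for shYAP/TAZ. The labels do not say that the numbers pair the arrays. Both arrays numbered 1 are ileal-high and both shRNA arrays are ileal-low. In siRNA comparison 2 the siYAP/TAZ array is ileal-high and its control ileal-low, and in comparison 3 the reverse. Values of genes that define the split or were picked for it are given here as a description, since the choice sets them. Fabp6 differed, siYAP/TAZ minus siGFP, by -2.41, 7.69 and -6.05 in siRNA comparisons 1, 2 and 3 and by -0.07 in the shRNA comparison. Tmigd1 differed by -0.17, 4.57, -4.84 and 1.27, and Cd36 by 1.62, -3.81, 2.49 and 1.29. The 13 genes higher by at least 2-fold without overlap had a median of 1.86 in comparison 2 and -1.84 in comparison 3, and the 49 lower genes -1.63 and 1.03. The signs and sizes of these medians are set by how the genes were picked, so nothing is read from them. In the comparisons within a class, the same genes had medians of -0.50 (siRNA 1) and 0.16 (shRNA) for the higher set and 0.27 and -0.15 for the lower set. Single genes were larger within a class: Fabp1 stood at 4.96 and Slc2a2 at 2.71 in comparison 1.

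**Figure D5:**
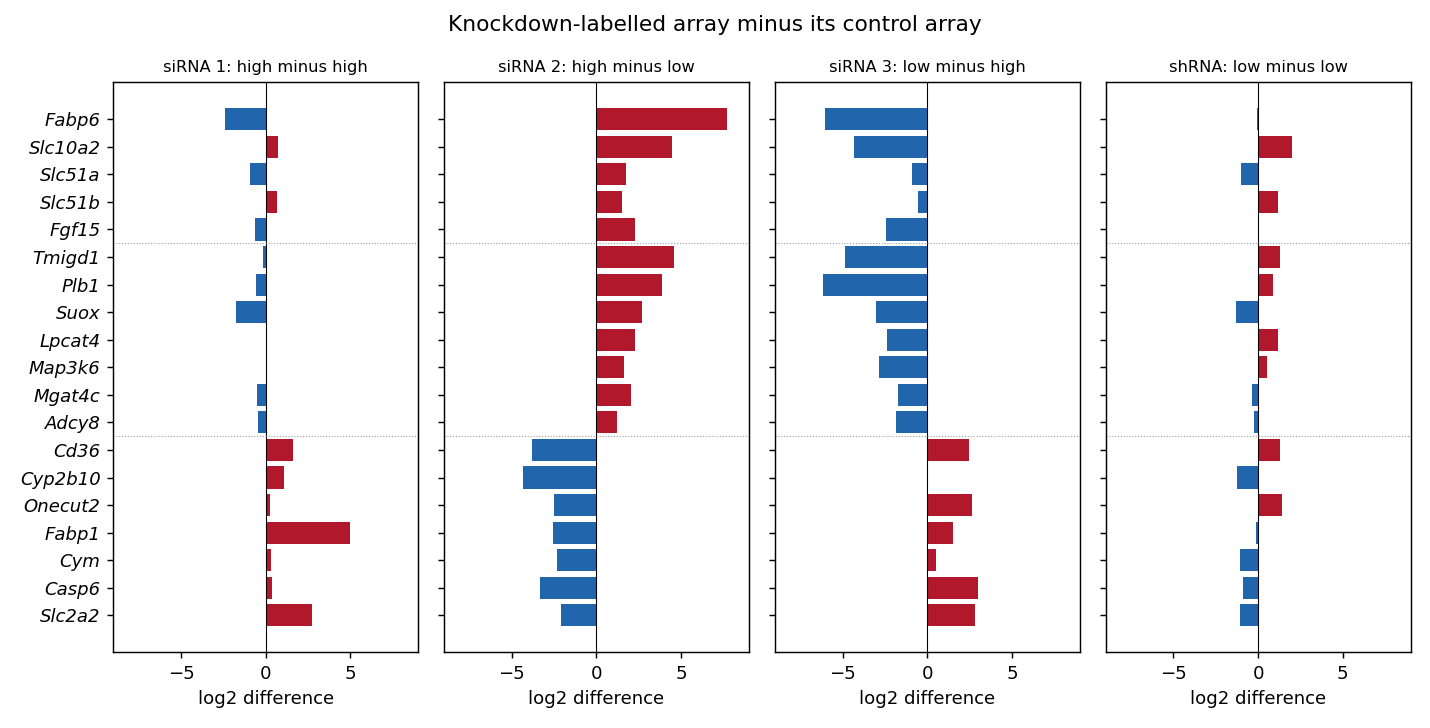
Log2 difference of each knockdown-labelled array from the control array of the same number, or from shLacZ for shYAP/TAZ (horizontal axes). Rows are the 5 defining bile acid genes, 7 genes higher and 7 genes lower in the ileal-high arrays, parted by dotted lines. There is 1 panel per comparison, with no replicates within a panel, and the labels do not say that the numbers pair the arrays. Fabp6 is at 7.69 in siRNA comparison 2 and -6.05 in comparison 3, where the classes of the arrays differ in opposite ways, and at -2.41 and -0.07 in the comparisons within a class.

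With the siRNA groups taken as labelled, the mean of the 8 defining genes came to 8.66 ± 1.15 (SD, n = 3) for the siGFP arrays and to 8.19 ± 1.25 (SD, n = 3) for the siYAP/TAZ arrays, a difference of -0.47 that is smaller than the spread within either group; it turned to 0.16 without siYAP/TAZ 3 and to 0.055 with the 5 bile acid genes alone. It was -1.09 without siYAP/TAZ 2, -1.13 without siGFP 2, -0.09 without siGFP 1 and -0.20 without siGFP 3. Among the defining genes, siYAP/TAZ minus siGFP was -2.85 for Cubn and -0.94 for Mptx1. For the other defining genes it lay between -0.27 (Pyy) and 0.54 (Slc51b). Across all 19938 genes limma called 0 (0.0%) at an adjusted p under 0.05, with 237 at an unadjusted p under 0.05, and with the ileal class as a covariate it again called 0, with 194. The class did change the precision of the genes it follows. For Tmigd1 the siYAP/TAZ minus siGFP difference was -0.15 with a standard error of 1.45 without the class and 0.41 with it, and for Onecut2 it was 0.14 with standard errors of 0.96 and 0.35. For Gata4 it was 0.02 with standard errors of 0.37 and 0.34. Since Tmigd1 and Onecut2 were picked for following the split, the smaller errors describe that choice. Leaving out siYAP/TAZ 1 gave 13 called genes of 19938 without the class and 14 with it, among them the B cell genes Cd22, Ms4a1, Fcer2a and Pax5 in both fits. The arrays then left in that group, siYAP/TAZ 2 and siYAP/TAZ 3, had summed B and plasma cell marker intensities of 2850 and 1460. No other array exceeded 558. The part of B cell content in these calls was not tested.

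The largest differences were also taken within the 3 arrays set apart by the first principal component and within the other 5. Of those 3, siYAP/TAZ 2 and siGFP 3 are ileal-high and siYAP/TAZ 3 is ileal-low. Some differences were close in both sets and others were not. Tmigd1 differed by 4.41 and 3.30, Suox by 3.26 and 3.36, Cd36 by -2.88 and -4.09, Onecut2 by -2.76 and -3.20 and Gata4 by -0.91 and -0.73. Plb1, at 5.78 and 2.05, and Cyp2b10, at -1.28 and -4.84, were less even. The direction of genes whose classes do not overlap is the same in any subset by construction. The 3-array subset has 1 ileal-low array and so no replicate check.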

How the data were processed

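RNA from 8 samples of mouse intestinal epithelium was measured on Affymetrix arrays, with biotin labelling by the WT Terminal Labeling and Hybridization Kit per the labels' protocols. The deposited values are linear intensity values of 28853 probe sets; no source used here gives the background correction, summarisation, scaling or genome build. Array medians lay 0.32 apart on the log2 scale, and the lowest value of each array was just above 16. Their log2 was quantile normalized. Probe sets naming 1 gene (21789; 1621 named several and 5443 had none listed) were used, with 21698 symbols updated through the GRCm38 RefSeq table. Each of 19938 genes was represented by its brightest probe set; 999 had several. Listed genes that no probe set named alone were not analysed here. The number of arrays limits the precision, and p-values measure the spread between samples, which may be technical.

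The split, the gene lists and the rules were chosen with earlier results of these data known. Genes named are the 15 largest differences in each direction among genes with no overlap between classes and outside the dimmest 33%, passing over the defining genes, unnamed predicted genes, receptor families and antigen receptor segments; up to 5 members per list; and Yap1, Wwtr1, Gata4, Gata6, Cdx2, Osr2, Nr1h4, Nr0b2, Amn, Lrp2 and Dab2. A few further list members, cell type markers and called genes are named outside this rule, after their values were seen. Labelled siRNA groups were compared by lmFit and eBayes of limma 3.58.1, under R 4.3.3 (Benjamini-Hochberg adjusted p, threshold 0.05); Python 3.11.15 did the rest. The alternatives are given with their effect in the closing section, and the within-component differences were added after seeing the data. Scripts were tested on simulated data. RefSeq promoter windows matched 128 of 169 named genes.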

Additional observations from a re-analysis of the deposited data

Results flagged for a closer look

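Within each class of 4 arrays, the 30 genes with the largest differences were examined for an array far from the other 3, which gave 3 in 60 comparisons. Chance gives about 1 in 20 for genes chosen without regard to the arrays; these genes were chosen for classes that do not overlap, which limits the spread within a class, so the values are a description. Cyp2b9 stood at 8.44 in shLacZ, against 7.19 to 7.35 in the other ileal-low arrays. Nr1i3 stood at 8.06 in siGFP 3, against 5.85 to 5.95 in the other ileal-high arrays. Fn1 stood at 9.91 in shYAP/TAZ, against 7.13 to 7.58 in the other ileal-low arrays.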

How the results depend on the processing

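With 75th percentile centring the genes higher in the ileal-high arrays without overlap numbered 55 instead of 109, without normalization 46 and with the dimmest genes left out, so that fewer were examined, 48. The genes lower in the ileal-high arrays without overlap were within 1.5 times of 140 there. Subtracting 15 before log2, which widens differences of dim genes, gave 24 genes at least 2-fold higher instead of 13. The siRNA arm alone, with 2 ileal-low arrays and so easier separation, gave 1001 higher and 783 lower genes without overlap, 57 and 137 of them at least 2-fold. For the same reason, leaving out 1 array gave between 190 and 316 higher and between 206 and 387 lower genes, with 15 to 40 and 42 to 97 at least 2-fold. Of the 30 genes with the largest differences, 29 had the classes apart with 75th percentile centring, 28 without normalization and 30 under the other settings. The sodium-coupled transporter and YAP/TAZ list medians, both within 0.04 of 0, changed sign with the scaling, and the medians of 15 of 28 lists changed sign over left-out arrays. Among list medians, 4 recomputed values moved by more than the spread between arrays and 388 did not. Leaving out 1 array of a class of 4 can hardly move a median by that much. For left-out arrays these counts therefore say little about stability. Those counts leave out the sets of high and low first component, added after seeing the data, where 11 moved, 1 reversed and 44 did not. In the set of high first component the PPAR median turned to 0.0077. Paneth medians were 0.15 in the high and 0.20 in the low set, against -0.25 over all arrays. B and plasma cell medians were -0.24 and -0.15 there, against 0.29. In the siRNA comparison limma called 0 genes in every other setting, 13 without siYAP/TAZ 1, 14 without it and with the class as covariate (0 to 14 over the arrays left out), and 1 with the replicate block, B3gnt7 (difference 2.65, adjusted p = 0.0118, higher in 3 of 3 comparisons). With arrays weighted by how well they fit the model, limma also called 0 genes, but narrowly. The smallest adjusted p was 0.0526, and 3896 genes had an unadjusted p under 0.05, against 237 without weights. Same-numbered arrays had deviations correlated at 0.75, -0.13 and 0.57, and differently numbered arrays at -0.74 to 0.58. These values do not settle whether the numbers pair the arrays. The difference in the 8-gene score ranged from -1.13 to 0.16 over left-out arrays, was 0.055 with 5 genes and stayed at -0.47 with the replicate block.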

Other observations

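Probe sets that name no gene or several genes were not part of the counts above. Of 7064 such probe sets, 46 were higher and 27 lower in all ileal-high arrays than in all ileal-low arrays. Among genes 0.547% were higher and 0.702% lower in that way, and nothing is read from the probe set counts.

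The array shYAP/TAZ held levels on both sides of the split. It had the most Slc10a2, Slc51b, Tmigd1, Plb1 and Lpcat4 of the ileal-low arrays and was with the ileal-high arrays for Reg1 (4.77) and Slc46a1 (8.33), while its Cd36 (10.72) and Onecut2 (9.63) were the highest of all 8 arrays. Nos2 and Fut2, genes of epithelial defence, were highest there (10.51 and 10.68) and in siYAP/TAZ 1 (9.91 and 11.64), which is ileal-high. These 2 arrays were also the lowest in Cubn and Amn. Both are knockdown-labelled, and both genes were higher in the control arrays siGFP 1 and shLacZ.

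Prdm16, a transcription regulator gene just inside the dimmest 33% and so outside the naming rule, was chosen after its values were seen. It was at 5.36, 5.43, 5.30 and 5.27 in the ileal-high arrays and 6.47, 6.50, 6.88 and 6.55 in the ileal-low arrays, a gap of 1.03 between the classes.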
